A study of Mus musculus with 3 samples.

Results

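Chemokines and the interleukin-1 axis were followed through 10 genes in the cells of the mouse mandibular condyle, the lower bony surface of the temporomandibular (jaw) joint. The genes were chosen by symbol, all 10 were found among the 32285 genes counted, and they are Cxcl1, Cxcl2, Cxcl5, Cxcl14, Ccl2, Ccl7, Il6, Il33, Il1r1 and Nfkbia. Condyles of wild-type C57BL6 mice, which carried no allele or treatment, came from E16.5 embryos (embryonic day 16.5), newborns (P0) and adults aged 13 weeks (13w). Each age group was a pool of 7 to 20 mice, dissociated for 90 min at 37 °C with collagenase A and dispase, sorted for live cells and made into 1 droplet library with 3′ chemistry. With 1 library per stage there was no replicate and no test: every interval given is a 95% counting interval, and it covers neither animals nor libraries. Levels are unique molecular identifiers (UMIs) summed over the cells of a group, scaled to the total UMIs of that group (CPM).

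Chemokines are small secreted proteins that steer cells along gradients. CXCL1, CXCL2 and CXCL5 act on the receptor CXCR2 and recruit neutrophils, CCL2 and CCL7 act mainly on CCR2 and recruit monocytes, and CXCL14 is a chemokine made constitutively by many epithelia and fibroblasts. Interleukin-1 binds IL1R1, which pairs with the accessory protein encoded by Il1rap and signals through MYD88 to the IκB kinases. These release the transcription factor NF-κB from IκBα, the protein encoded by Nfkbia, and NF-κB in turn transcribes Nfkbia as well as chemokine and Il6 genes. In cartilage, interleukin-1 is known for inducing matrix-degrading enzymes. IL-33 is an alarmin of the interleukin-1 family that is held in nuclei and released by damaged cells.

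The promoters of the NF-κB responsive members and of Cxcl14 show how alike and unlike the sequences ahead of these genes are. RefSeq promoter windows of build GRCm38.p6 (250 bases before to 50 after the start of a gene) were matched by symbol for 7 of the 10 members, as 9 windows, because Il1r1 and Il33 each had more than 1 start. The authors counted on GRCm39, so these coordinates were not joined to the counts. Both strands were searched for the kappaB consensus, the 10-base NF-κB motif, and capitals mark its matches in the last 150 bases before the start.
Cxcl1, chr5:90891095-90891244, plus strand: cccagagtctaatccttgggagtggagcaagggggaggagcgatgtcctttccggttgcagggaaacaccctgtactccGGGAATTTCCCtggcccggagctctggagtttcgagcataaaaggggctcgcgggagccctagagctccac
Cxcl2, chr5:90903749-90903898, plus strand: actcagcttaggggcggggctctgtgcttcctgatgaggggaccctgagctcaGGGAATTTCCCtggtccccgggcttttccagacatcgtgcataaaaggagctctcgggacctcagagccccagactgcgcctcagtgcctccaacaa
Nfkbia, chr12:55492648-55492797, minus strand: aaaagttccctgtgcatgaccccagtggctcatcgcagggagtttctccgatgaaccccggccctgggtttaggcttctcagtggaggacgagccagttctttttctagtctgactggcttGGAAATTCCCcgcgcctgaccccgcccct
Il6, chr5:30012964-30013113, plus strand: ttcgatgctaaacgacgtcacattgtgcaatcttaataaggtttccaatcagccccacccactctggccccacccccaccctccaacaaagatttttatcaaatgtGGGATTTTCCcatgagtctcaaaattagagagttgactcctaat
Cxcl14, chr13:56296552-56296701, minus strand: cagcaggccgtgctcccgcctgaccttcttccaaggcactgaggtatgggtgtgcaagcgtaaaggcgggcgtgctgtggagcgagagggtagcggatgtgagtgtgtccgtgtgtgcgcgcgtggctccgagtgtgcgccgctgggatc
The Cxcl1 and Cxcl2 promoters, which lie near each other on chromosome 5, both held GGGAATTTCC, starting 71 and 97 bases before the start. Each of these matches overlaps a match on the other strand that is shifted by 1 base. Nfkbia held the same GGGAATTTCC on the opposite strand of its window, 29 bases before the start, and Il6 held GGGATTTTCC 44 bases before. A kappaB match was found in 5 of the 9 member windows, the fifth being in the Il1r1 window at chr1:40266336-40266635, 232 bases before the start. The consensus was present in 2779 of 32851 windows of the same length, or 8.46%. The windows of Cxcl14 and Il33 held none, nor did the other Il1r1 window, at chr1:40224830-40225129. These letter matches are descriptions of sequence only.

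Cells were kept if they showed 500 or more genes and if mitochondrial transcripts made up no more than 10% of UMIs, namely 4562 of 5458 E16.5 barcodes, 3999 of 4853 P0 barcodes and 8028 of 8899 13w barcodes, with 103827875, 98486931 and 115836876 UMIs in the whole libraries. Cells with no UMI of Ptprc, the pan-leukocyte gene, were split by Col9a1, a cartilage collagen chain. Cells with at least 3 Col9a1 UMIs per 10000 are called Col9a1-high and the others Col9a1-low. At E16.5, P0 and 13w there were 1011, 1743 and 1598 Col9a1-high cells, with median UMIs of 40337, 36416 and 23783. Col9a1-low cells numbered 3407, 2240 and 6099, with median UMIs of 15027, 11773.5 and 9586. Ptprc-positive cells numbered 144, 16 and 331. Col9a1 is a continuous measure: at 13w, 815 Col9a1-high cells were between 3 and 10 per 10000 and 822 Col9a1-low cells between 1 and 3. A list of 12 chondrocyte markers summed to 26300, 41600 and 60300 CPM in Col9a1-high cells, and to 1050, 1750 and 7100 CPM in Col9a1-low cells, at E16.5, P0 and 13w. In Ptprc-positive cells it summed to 872, 9300 and 8530 CPM, above Col9a1-low cells at P0 and 13w. The part of free RNA in these sums was not tested. By marker lists, Col9a1-low cells held several cell types. The marker lists of fibroblasts and of the joint surface summed to less in Col9a1-high than in Col9a1-low cells. At 13w the sums were 16800 and 247 CPM against 22100 and 837 CPM. Within the fibroblast list at 13w, Col1a1 went the other way, with 12500 against 10200 CPM. Col3a1 went with the sum, with 2080 against 6720 CPM. Col9a1-high cells also differed in make-up between stages. In them 6 osteoblast lineage markers summed to 2670, 2710 and 39300 CPM at E16.5, P0 and 13w. A list of 6 hypertrophic chondrocyte markers summed to 4670, 7760 and 54200 CPM there. A UMI of Bglap, the osteocalcin gene, was found in 4.93% of them at P0 and 66.6% at 13w. The stage ratios of Col9a1-high cells were not adjusted for this. Between 10 and 15 barcodes were shared by any pair of libraries.

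The 10 genes divided by level. Nfkbia reached at least 81.1 CPM in every Ptprc-free group, Cxcl1, Cxcl14, Il1r1 and Cxcl2 passed 10 CPM in at least 1 Ptprc-free group, and Cxcl5, Ccl2, Ccl7, Il6 and Il33 stayed below 10 CPM in all 6. A gene counted as measured in a comparison with at least 10 CPM in the higher of its groups, and as higher or lower when it was measured and differed at least 2-fold. Since a member can pass this filter through its high group alone, the counts below are read only beside the share of all measured genes that did the same. A summed level cannot tell more expressing cells from more RNA per cell, so shares of cells are added where they bear on it.

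**Figure D1:**
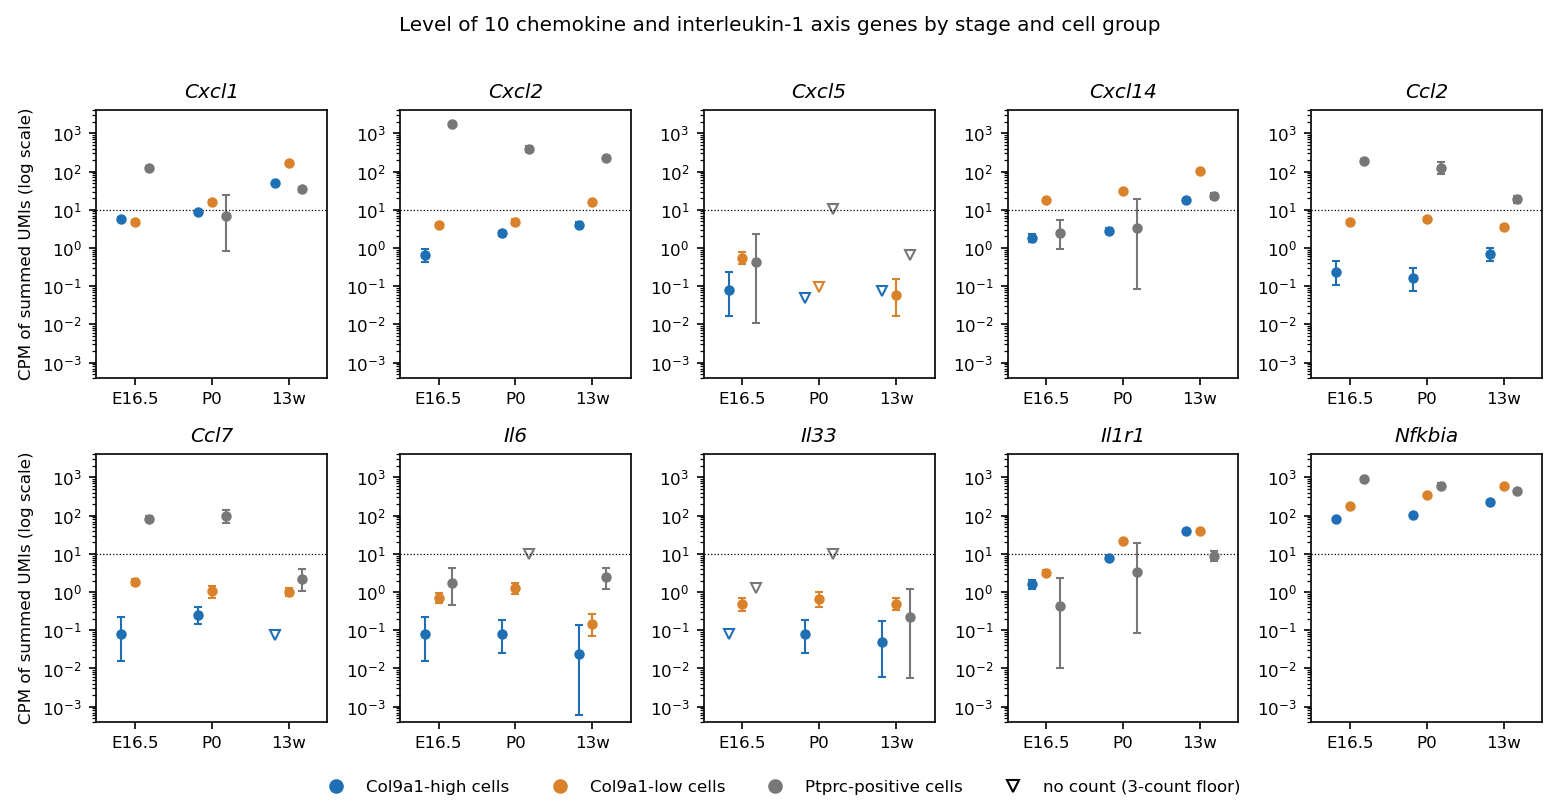
Each panel plots the level of 1 gene as CPM of summed UMIs (log scale) at E16.5, P0 and 13w in Col9a1-high, Col9a1-low and Ptprc-positive cells, with 95% Poisson intervals; open triangles stand at the floor of 3 counts where no UMI was seen, and the dotted line is 10 CPM. Cxcl1, Cxcl14, Il1r1 and Nfkbia are highest at 13w in both Ptprc-free groups, while Cxcl2, Ccl2 and Ccl7 are highest in Ptprc-positive cells at E16.5 or P0.

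Between 13w and the earlier stages, most measured members were at least 2-fold higher at 13w and none was 2-fold lower. At 13w against P0, 4 of 4 measured members were higher in Col9a1-high cells, beside 6.93% of all measured genes, and 3 of 5 in Col9a1-low cells, beside 9.45%. At 13w against E16.5, 4 of 4 were higher in Col9a1-high cells and 5 of 5 in Col9a1-low cells, beside 10.2% and 13.4% of all measured genes. At P0 against E16.5, 0 of 1 was higher in Col9a1-high cells, beside 4.81%, and 2 of 4 in Col9a1-low cells, beside 5.69%. In the other direction, 12.1% of all measured genes were 2-fold lower at 13w against P0 in Col9a1-high cells and 8.28% in Col9a1-low cells. At 13w against E16.5 these shares were 19.7% and 17.2%, and at P0 against E16.5 they were 5.05% and 6.94%. Other scalings of the libraries moved the median log2 ratio of all genes by up to 0.36, and the members named as higher at 13w were higher under each of them.

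Cxcl1, a neutrophil attractant, had the largest ratio of 13w over E16.5 among the measured members in Col9a1-low cells. In Col9a1-high cells it stood at 5.68 CPM at E16.5, 8.72 CPM at P0 and 49.3 CPM (47.2 to 51.5) at 13w. In Col9a1-low cells it stood at 4.76 CPM at E16.5, 16.3 CPM at P0 and 164 CPM (161 to 168) at 13w. The level thus stood in the order of age in both groups, and the Col9a1-low cells at 13w were above every other Ptprc-free group. The 13w level in Col9a1-low cells was 10.1-fold that of P0 (interval 9.22 to 11) and 34.5-fold that of E16.5 (30.7 to 39.0), and in Col9a1-high cells it was 5.65-fold that of P0 (5.14 to 6.23) and 8.67-fold that of E16.5. At E16.5 the 2 groups were not separated, with a ratio of Col9a1-high to Col9a1-low cells of 1.19 (0.996 to 1.43), whereas at 13w Cxcl1 was 3.34-fold lower in Col9a1-high cells (3.18 to 3.50).

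The Cxcl1 signal came from a minority of cells that held many copies. After each cell was thinned to 3000 UMIs, a Cxcl1 UMI was found in 1.72%, 1.98% and 8.81% of Col9a1-high cells at the 3 stages in order of age, and in 1.53%, 2.97% and 17.2% (16.3 to 18.2) of Col9a1-low cells. Without thinning the 13w shares were 23.8% in Col9a1-high and 27.3% in Col9a1-low cells. Ptprc-positive cells of the same library, thinned alike, gave 4.29%, from a median depth of 8649 UMIs. Among Col9a1-low cells at 13w, the 61 cells richest in Cxcl1 (1% of the group) held 22.3% of its UMIs, the richest 10% held 78.9%, and the highest single cell held 171.

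Cxcl2 shares CXCR2 as its receptor and was far scarcer outside blood cells. It had 0.652, 2.42 and 4.04 CPM in Col9a1-high cells at E16.5, P0 and 13w, and 3.98, 4.80 and 15.9 CPM in Col9a1-low cells. Ptprc-positive cells had 1710, 386 and 231 CPM at the same stages, so the blood cells were above both other groups at each stage. In Col9a1-low cells the 13w level was 3.31-fold that of P0 (2.78 to 3.95) and 3.99-fold that of E16.5 (3.46 to 4.61). These sums rest on few cells: the richest 1% of Col9a1-low cells held 84.4% of the Cxcl2 UMIs at 13w and 91.9% at P0. When every cell was given equal weight, the 13w against E16.5 difference was 0.96 on the log2 scale and no longer 2-fold. A list of 10 neutrophil markers was also highest at 13w. Its summed level was 15.4, 0.616 and 722 CPM in Col9a1-low cells at E16.5, P0 and 13w, 3.57, 0.429 and 143 CPM in Col9a1-high cells, and 27400, 1690 and 84400 CPM in Ptprc-positive cells. At 13w all 10 were detected in both Ptprc-free groups, and at P0 3 of them (S100a8, S100a9 and Ly6g) were at 0 in Col9a1-high cells and 5 (Camp, Ltf, Ly6g, Retnlg and Mpo) in Col9a1-low cells. With marker-gated blood, vascular, muscle, neural and epithelial cells left out, the 13w against E16.5 log2 ratio of Cxcl2 in Col9a1-low cells was 3.59, against 2.00 with them.

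Cxcl14 followed the Col9a1 split at every stage. It had 1.80, 2.83 and 17.9 CPM in Col9a1-high cells at E16.5, P0 and 13w, and 18.5, 30.1 and 106 CPM in Col9a1-low cells. At each stage the Col9a1-low value exceeded the Col9a1-high value. Across stages, E16.5 Col9a1-low cells (17.4 to 19.6) and 13w Col9a1-high cells (16.7 to 19.3) did not separate. Ptprc-positive cells at 13w had 23 CPM (18.8 to 27.8) of Cxcl14, which did not separate from Col9a1-high cells of that library. The part of free RNA in the Cxcl14 level of either group was not tested. Cxcl14 was 10.3-fold lower in Col9a1-high than in Col9a1-low cells at E16.5, 10.6-fold lower at P0 and 5.90-fold lower (5.46 to 6.37) at 13w. The stage ratio of 13w over P0 was 6.34 (5.37 to 7.51) in Col9a1-high cells and 3.51 (3.28 to 3.77) in Col9a1-low cells. After thinning, 5.57% of E16.5, 5.70% of P0 and 18.7% of 13w Col9a1-low cells had a Cxcl14 UMI. At 13w Col9a1-high cells gave 5.70% and Ptprc-positive cells 3.63%, with overlapping intervals. The P0 and E16.5 shares did not separate (4.77 to 6.76% and 4.81 to 6.41%), although the P0 level was 1.63-fold the E16.5 level (1.49 to 1.78).

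Il1r1, the signalling receptor of interleukin-1, was the member whose 2 cell groups met with age when scaled to total UMIs. Col9a1-high cells had 1.59, 7.92 and 39.9 CPM at E16.5, P0 and 13w. Col9a1-low cells had 3.24, 21.3 and 38.9 CPM. Col9a1-high cells were 2.69-fold lower than Col9a1-low cells at P0 (2.39 to 3.02), and at 13w the ratio was 1.03 with an interval of 0.964 to 1.09. This near equality holds for scaling to total UMIs only. Under both other scalings the median log2 ratio of all genes at 13w moved toward Col9a1-high cells, by 0.32 and 0.36. In Col9a1-low cells most of the difference lay before birth, 6.56-fold for P0 over E16.5 against 1.83-fold for 13w over P0. In Col9a1-high cells both steps were similar, 4.98-fold for P0 over E16.5, with both stages under 10 CPM, and 5.04-fold for 13w over P0. The UMIs of the receptor were less concentrated than those of Cxcl1 and Cxcl14: the richest 10% of Col9a1-low cells at 13w held 47.8% of them, against 78.9% for Cxcl1 and 65.0% for Cxcl14. Its thinned shares were 11.7% in Col9a1-high and 11.5% in Col9a1-low cells, against 1.65% in Ptprc-positive cells.

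Without thinning, Nfkbia, the NF-κB inhibitor that is also an NF-κB target, was detected in most cells of each group. After thinning, it was found in 20.7%, 23.3% and 39.7% of Col9a1-high cells at E16.5, P0 and 13w. In Col9a1-low cells the thinned shares were 39%, 56.9% and 64.1%. Nfkbia had 81.1, 103 and 228 CPM in Col9a1-high cells at E16.5, P0 and 13w, and 182, 345 and 606 CPM in Col9a1-low cells. Levels followed age in both groups, and Col9a1-high cells were the lower at each stage, 2.24-fold, 3.36-fold and 2.66-fold. For 13w over P0 the ratio was 2.22 in Col9a1-high cells and 1.76 in Col9a1-low cells, and for 13w over E16.5 it was 2.81 and 3.34. Ptprc-positive cells had 921, 600 and 435 CPM, in the opposite order of age.

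**Figure D2:**
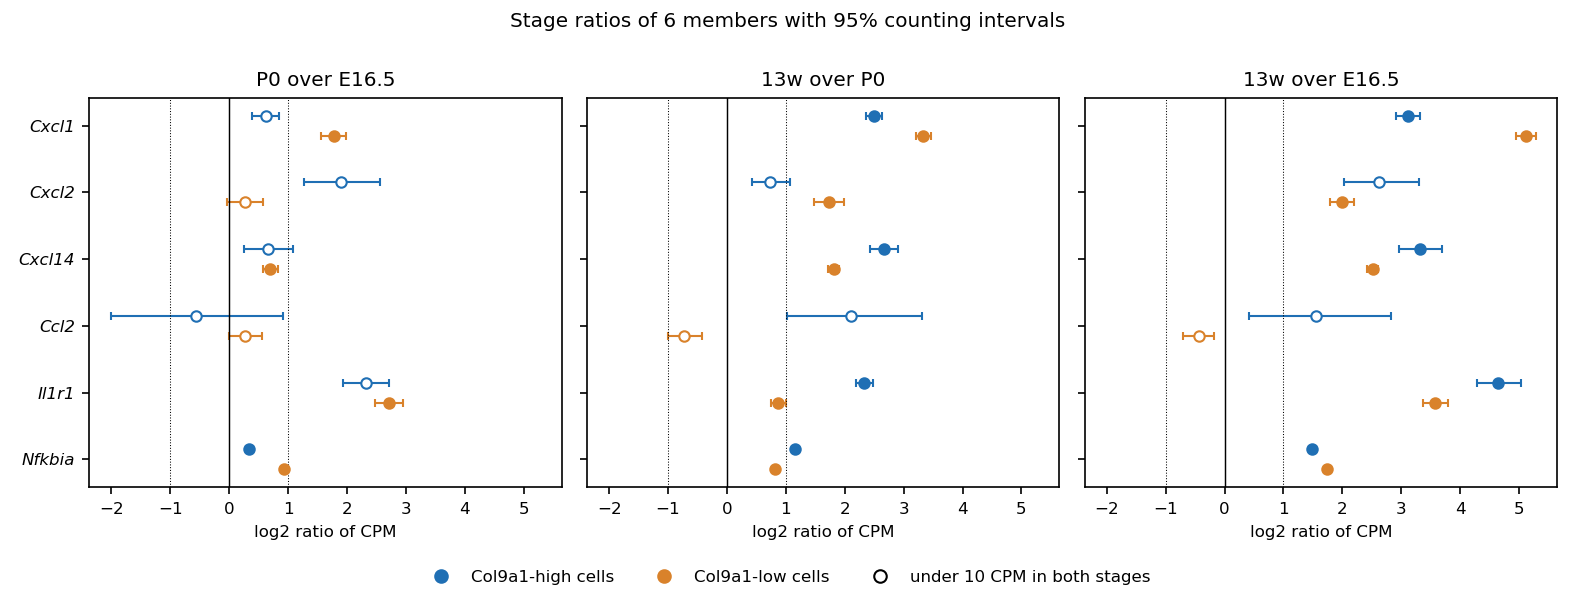
Each point is the log2 ratio of CPM between 2 stages for 1 member in Col9a1-high or Col9a1-low cells, with its 95% counting interval; open points had under 10 CPM at both stages, and dotted lines mark 2-fold. At 13w over E16.5, Cxcl1 (5.11) and Il1r1 (3.58) lie farthest to the right in Col9a1-low cells, and Il1r1 (4.65) and Cxcl14 (3.32) among the measured members in Col9a1-high cells, where Cxcl1 is at 3.12.

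Ccl2 and Ccl7, the monocyte attractants, and Cxcl5, Il6 and Il33 were scarce in Ptprc-free cells and did not share the upward order. Ptprc-positive cells had 83.7, 94.9 and 2.21 CPM of Ccl7 at E16.5, P0 and 13w. Cxcl5, Il6 and Il33 were scarce there too, each with at most 11 counts at any stage. Ccl2 had 0.235, 0.159 and 0.686 CPM in Col9a1-high cells at E16.5, P0 and 13w, and 4.66, 5.64 and 3.44 CPM in Col9a1-low cells. It was thus 5.01-fold to 35.5-fold lower in Col9a1-high cells, and Ptprc-positive cells had 191, 125 and 18.8 CPM. Ccl7 had 0.0782, 0.255 and 0 CPM in Col9a1-high cells and 1.86, 1.04 and 1.03 CPM in Col9a1-low cells. Its 13w difference between them, with 0 counts against 70, is at least 14.0-fold lower in Col9a1-high cells when set against a floor of 3 counts in that group. Il6, the cytokine that drives acute-phase signalling, had 43 counts in Col9a1-low cells of E16.5, 39 of P0 and 10 of 13w, which made it 8.57-fold lower at 13w than at P0 in CPM. Cxcl5 had 33 counts in E16.5 Col9a1-low cells, 0 in P0 and 4 in 13w ones, so its P0 level was at least 5.67-fold lower than at E16.5. Il33 had 0.485, 0.648 and 0.487 CPM in Col9a1-low cells and at most 5 counts in any Col9a1-high group. None of the values in Ptprc-free cells reached 10 CPM, and no member of this group was counted as higher or lower.

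Set side by side, the Col9a1-high cells were below the Col9a1-low cells in every measured member except Il1r1 at 13w. At E16.5, 2 of 2 measured members were at least 2-fold lower in Col9a1-high cells, beside 14.9% of all measured genes. At P0 it was 3 of 4 beside 14.2%, and at 13w 4 of 5 beside 10.2%. No member was 2-fold higher in Col9a1-high cells, beside 9.43%, 10.6% and 3.79% of all measured genes. The exceptions to the lower calls were Cxcl1 at P0, 1.87-fold lower, and Il1r1 at 13w. Under both other scalings the E16.5 count was 1, since Nfkbia then stood at a log2 ratio of -0.85.

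Within the 13w library the chemokines were distributed unevenly over Col9a1-low cells. Cells were grouped by at least 3 UMIs per 10000 of Prg4 (lubricin, of the joint surface), Cilp2 (a cartilage matrix protein), Dpt (dermatopontin, of fibroblasts), Bglap (osteocalcin, of osteoblasts) or Col10a1 (of hypertrophic chondrocytes). These groups overlap: 51.1% of the 1304 Cilp2-positive cells were also Dpt-positive. Cxcl1 had 303 CPM (294 to 313) in Cilp2-positive, 209 CPM in the 2855 Dpt-positive and 113 CPM in the 180 Prg4-positive cells. It had 38.1 CPM in the 364 Bglap-positive and 51.4 CPM in the 163 Col10a1-positive cells, and 120 CPM in the 1979 cells with none of the 5. The Cilp2-, Dpt- and Prg4-positive groups thus stood above the Bglap- and Col10a1-positive ones, with no overlap of intervals, while the Prg4-positive cells did not separate from those with none of the 5. This order moved with the level of immediate early genes, described further on. Among cells below the median of those genes, Cxcl1 had 28.8 CPM (20.6 to 39.3) in Cilp2-positive, 24.2 CPM in Dpt-positive and 26.1 CPM in Prg4-positive cells. There it had 8.23 CPM (3.55 to 16.2) in Bglap-positive and 11.5 CPM (3.13 to 29.4) in Col10a1-positive cells, and 21.1 CPM (17.9 to 24.7) in those with none of the 5, so that the Col10a1-positive interval overlapped all the others.

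Cxcl14 had 173 CPM (152 to 197) in Prg4-positive, 155 CPM (149 to 162) in Cilp2-positive and 141 CPM in Dpt-positive cells, and the first and second of these did not separate. It had 67.2 CPM in Col10a1-positive and 31.0 CPM in Bglap-positive Col9a1-low cells. Among Col9a1-high cells it was lowest in Col10a1-positive ones, 6.43 CPM (4.87 to 8.33), against 20.9 CPM (19.3 to 22.5) in Col10a1-low ones. Il1r1 ordered differently: it had 69.0 CPM (55.7 to 84.7) in Prg4-positive and 51.4 CPM (44.3 to 59.3) in Bglap-positive cells, whose intervals overlap, and 24.7 CPM in Col10a1-positive against 44.0 CPM in Col10a1-low Col9a1-high cells. Nfkbia had 794 CPM in Cilp2-positive, 731 CPM in Dpt-positive, 395 CPM in Bglap-positive and 379 CPM in Col10a1-positive Col9a1-low cells. Il33 was concentrated: 13 of its 33 counts in Col9a1-low cells lay in the Prg4-positive cells, at 9.76 CPM (5.19 to 16.7). Osteoblast markers also gave 5790 CPM in Ptprc-positive cells at 13w, against 6070 CPM in Col9a1-low cells, and the part of free RNA in the Bglap gate was not tested.

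At 13w, Cxcl2 was higher in macrophage-gated and neutrophil-gated cells than in the Ptprc-free groups, and Ccl2 in macrophage-gated cells. Of the 13w cells, 76 were gated by the macrophage and monocyte list and 209 by the neutrophil list. The first gate included 9 Col9a1-low cells, and the second 40 Col9a1-low and 6 Col9a1-high cells. Ccl2 had 84.4 CPM (66.5 to 106) in the macrophage-gated and 1.93 CPM in the neutrophil-gated cells, against 3.44 CPM in Col9a1-low cells. Cxcl2 had 199 CPM in the macrophage-gated and 310 CPM in the neutrophil-gated cells, and 1610 CPM in the 51 neutrophil-gated cells of E16.5. Cxcl1 had 13.3 CPM in macrophage-gated and 25.4 CPM in neutrophil-gated cells at 13w, below its level in either Ptprc-free group. The order was the reverse at E16.5, where neutrophil-gated cells had 53.6 CPM (33.2 to 81.9) of Cxcl1. Ptprc-positive cells as a whole had 127, 6.78 and 34.2 CPM of it at E16.5, P0 and 13w, the P0 value from 2 counts.

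**Figure D3:**
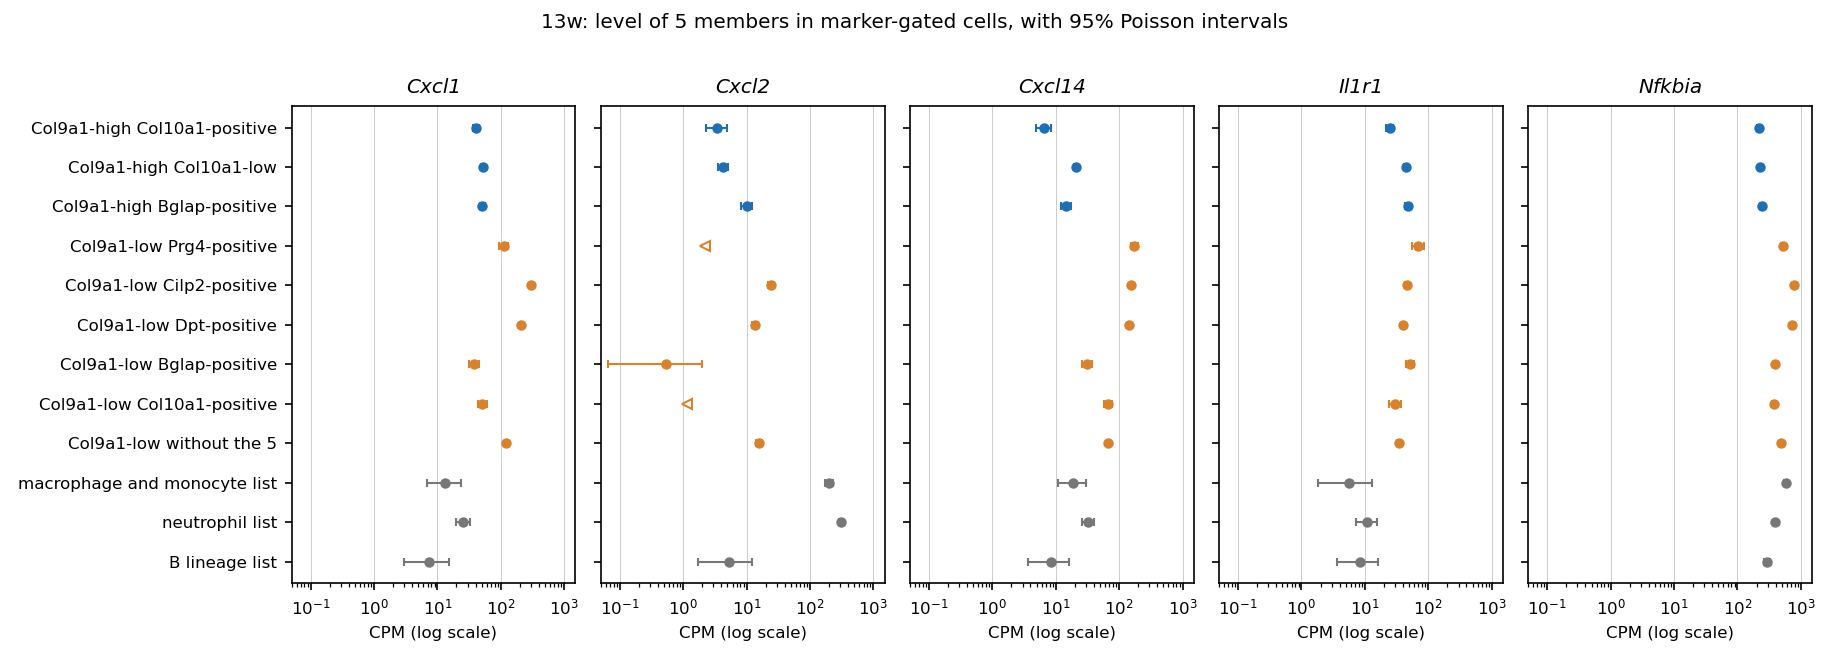
Levels of 5 members (CPM, log scale) in marker-gated cells of the 13w library, with 95% Poisson intervals; blue marks Col9a1-high, orange Col9a1-low and grey cells gated by blood cell lists, and an open triangle marks no count at a floor of 3. Cxcl1 is highest in the Cilp2- and Dpt-positive rows and Cxcl14 in the Prg4-, Cilp2- and Dpt-positive rows, Il1r1 varies least among Ptprc-free rows, and Cxcl2 is highest in the macrophage and neutrophil rows.

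Immediate early genes, which respond within minutes to stimulation and also to tissue dissociation, differed between the stages and moved with several members. A list of 24 such genes summed to 3690, 4330 and 6620 CPM in Col9a1-high cells at E16.5, P0 and 13w, and to 3250, 4820 and 8450 CPM in Col9a1-low cells. Ptprc-free cells were divided at the overall median of 46.5 immediate early UMIs per 10000. In Col9a1-low cells at 13w, Cxcl1 had 215 CPM (211 to 219) in cells at or above that median, against 21.3 CPM (19.2 to 23.6) in cells below it, a 10.1-fold ratio. Cxcl2 had 20.8 CPM at or above and 1.81 CPM below, an 11.5-fold ratio, and Nfkbia 732 and 251 CPM. The ratio was smaller for Cxcl14, with 116 CPM at or above and 77.1 CPM below, and for Il1r1, with 42.6 and 28.4 CPM, 1.5-fold in both.

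The differences of 13w from the earlier stages in Cxcl1, Cxcl14 and Il1r1 were also present among cells of low immediate early level. Below the median, Cxcl1 in Col9a1-low cells had 2.88, 6.86 and 21.3 CPM at E16.5, P0 and 13w, a log2 ratio of 1.64 for 13w over P0, against 2.83 in cells at or above the median and 3.33 over all cells. For 13w over E16.5 the log2 ratio of Cxcl1 was 2.89 below the median, against 5.11 over all cells. Cxcl14 had 17.2, 16.4 and 77.1 CPM, and its log2 ratio of 13w over P0 was 2.23. Its P0 level was thus not above its E16.5 level among these cells. Il1r1 had 3.24, 17.0 and 28.4 CPM. Cxcl2 had 2.74, 1.14 and 1.81 CPM, so that its 13w level was below its E16.5 level (log2 ratio -0.60). Nfkbia had 154, 229 and 251 CPM, and its 13w over E16.5 ratio, 0.71 on the log2 scale, was no longer 2-fold. The 13w difference between the cell groups was also absent for Cxcl1 below the median, 21.4 CPM in Col9a1-high and 21.3 CPM in Col9a1-low cells, while that of Cxcl14 remained, 10.8 and 77.1 CPM. Cilp2-positive cells at 13w had the highest immediate early level of the groups set by 1 marker gene, a median of 99.4 per 10000, against 69.6 in Bglap-positive cells. Among Cilp2-positive cells Cxcl14 ran the other way from Cxcl1, with 144 CPM in cells at or above the median and 257 CPM in cells below it. The part of dissociation in these levels was not tested.

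**Figure D4:**
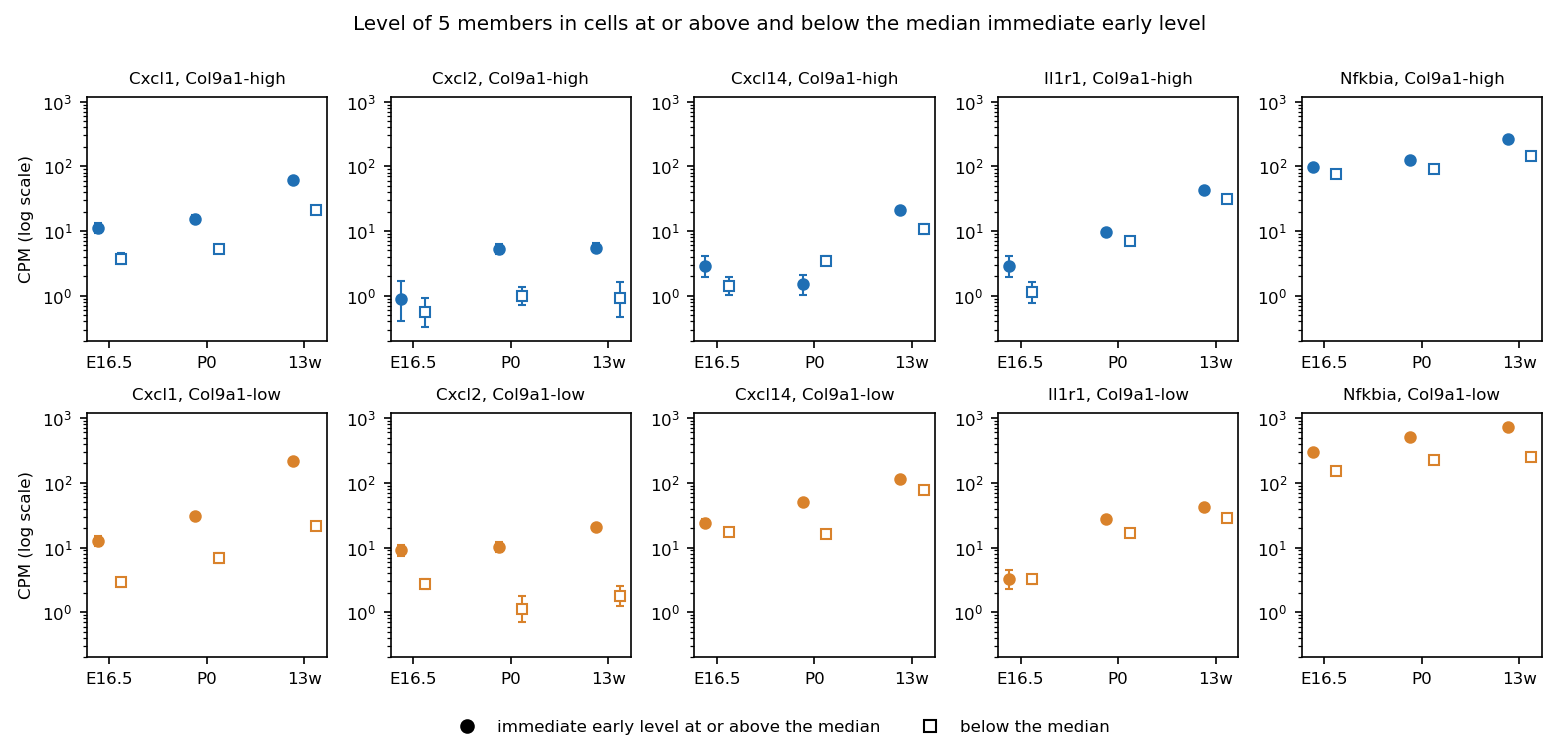
Levels of 5 members (CPM, log scale) at E16.5, P0 and 13w in Ptprc-free cells at or above (filled circles) and below (open squares) the median immediate early level, with 95% Poisson intervals; the upper row is Col9a1-high and the lower row Col9a1-low cells. The symbols lie farthest apart for Cxcl1 and Cxcl2 in Col9a1-low cells at 13w (215 and 21.3 CPM, 20.8 and 1.81 CPM), and for Il1r1 in the same cells they stand at 42.6 and 28.4 CPM.

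The members met in the same cells to different degrees. Among thinned Col9a1-low cells at 13w, 61.4% (50.4 to 71.6) of the 88 cells with a Cxcl2 UMI also had Cxcl1, against 16.5% of the 5773 without. At P0 it was 60.0% of 15 cells with Cxcl2, against 2.57% of 2177 without. At E16.5 it was 7.69% (0.195 to 36.0) of 13 cells with Cxcl2, against 1.51% of 3255 without, which did not separate. Nfkbia was found in 86.9% of Cxcl1-positive and 59.4% of Cxcl1-negative cells at 13w. Cxcl1 was found in 20.8% (18.4 to 23.3) of Cxcl14-positive and 16.4% (15.3 to 17.5) of Cxcl14-negative cells. For Il1r1 the same shares were 19.4% (16.5 to 22.6) and 16.9%, and their intervals overlap.

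The genes most like each member over the 5861 thinned Col9a1-low cells at 13w, by Pearson correlation of log counts among 5616 candidates that leave out the 10 members, differed between the chemokines. Among the members themselves, Cxcl1 had r = 0.31 with Nfkbia and 0.17 with Cxcl2 in the same cells. For Cxcl1 they were Rcan1, a calcineurin regulator (r = 0.30), Btg2 (0.29), Ier3 (0.28), Egr1 (0.25) and Ccnl1 (0.25), and in P0 and E16.5 cells these values were at most 0.08. For Nfkbia they were Ier3 (0.41), Gadd45b (0.39), Egr1 (0.39), Junb (0.37) and Ccnl1 (0.35). For Cxcl14 they were Gsn (0.26), Igfbp6 (0.25), S100a4 (0.23), Aldh1a3 (0.23) and Meg3 (0.21). Of these, Igfbp6, an insulin-like growth factor binding protein, and Meg3, an imprinted long noncoding RNA, had similar values at P0, 0.27 and 0.23. No candidate exceeded 0.11 for Cxcl2 or 0.09 for Il1r1. The cells share a library and a depth after thinning, and the counts are sparse, so these values describe the cells and carry no test.

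Around the members, interleukin-1 itself was nearly absent outside blood cells. Il1a had 0 counts in all 6 Ptprc-free groups, where 3 counts would be 0.0443 CPM in Col9a1-low cells at 13w. Il1b was at most 1.34 CPM in those groups, against 130, 27.1 and 121 CPM in Ptprc-positive cells at E16.5, P0 and 13w. Il1rn, the receptor antagonist, was at most 0.134 CPM outside blood cells, and Il1rap was between 3.45 and 6.60 CPM. None of the 13 other interleukin-1 family genes reached 10 CPM in either Ptprc-free group at any stage. Downstream, 2 of 7 measured signal transducers were higher at 13w than at E16.5 in Col9a1-low cells and 0 were lower, beside 13.4% higher and 17.2% lower of all measured genes. They were Map3k8, a kinase that activates the ERK pathway (26.0 CPM at 13w, 3.03 CPM at E16.5), and the adaptor Myd88 (22.3 and 9.68 CPM). Cxcr2, the receptor for CXCL1, was found in Ptprc-positive cells at 37.8, 6.78 and 64.5 CPM and at no more than 0.454 CPM elsewhere.

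Part of the NF-κB module was higher at 13w, as Nfkbia was. At 13w against E16.5, 7 of its 11 measured genes were higher and 0 lower in Col9a1-low cells, beside 13.4% and 17.2% of all measured genes, with a median log2 ratio of 1.43 beside -0.21 over all measured genes. In Col9a1-high cells it was 5 higher and 0 lower of 10, beside 10.2% and 19.7%, with a median of 0.92 beside -0.40. Those short of 2-fold included the kinase subunits Chuk and Ikbkb, at log2 ratios of -0.60 and -0.26 in Col9a1-high cells. In Col9a1-low cells the leading genes were Bcl3, a nuclear IκB protein (17.0-fold, 16.8 CPM at 13w and 0.986 CPM at E16.5), Relb, an NF-κB subunit (3.87-fold), and Nfkbiz, another nuclear IκB protein (3.16-fold). In the list of NF-κB target enzymes and adhesion molecules, 8 of 12 measured genes were higher in Col9a1-low cells and 1 lower, beside the same 13.4% and 17.2%, with a median of 1.83. Among them were the collagenase Mmp13, with 490 CPM at 13w and 0.819 CPM at E16.5, and the stromelysin Mmp3, with 60.4 CPM at 13w and 4 counts at E16.5. Mmp13 is also a gene of hypertrophic chondrocytes. Lcn2, also among the 8 higher genes, had 15.1 CPM at 13w and 0.284 CPM at E16.5. Ptprc-positive cells had 2150 and 967 CPM of Lcn2 at these stages. The part of blood cell RNA in the Col9a1-low level of Lcn2 was not tested. Vcam1, an adhesion molecule, was the lower one, 6.28-fold. Ptgs2, the inducible prostaglandin synthase, stood out by cell group: it had 11.3, 36.6 and 104 CPM in Col9a1-high cells at E16.5, P0 and 13w, and 2.67, 5.80 and 48.8 CPM in Col9a1-low cells, so that it was higher in Col9a1-high cells at each stage.

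In the interleukin-6 family the genes past 2-fold were receptors, relatives and signalling genes, since Il6 itself was not measured. At 13w against E16.5, 6 of 9 measured genes were higher in Col9a1-low cells and 1 was lower, beside 13.4% and 17.2% of all measured genes, with a median of 1.15. The oncostatin M receptor Osmr had 32.3 CPM at 13w and 1.27 CPM at E16.5, and Il11, a cytokine of the family, 16.7 and 1.34 CPM. Il11ra1, which encodes its receptor, was 2.03-fold lower in Col9a1-low cells. In Col9a1-high cells it went the other way, with 41.3 CPM at 13w and 18.9 CPM at E16.5, a log2 ratio of 1.13. Il6ra, the interleukin-6 receptor chain, had 5.63, 21.3 and 1.99 CPM in Col9a1-high cells at E16.5, P0 and 13w, highest at birth. Of the other chemokines, 4 of the 25 counted were measured in that comparison. Cxcl12, the CXCR4 ligand, was lower, with 65.0, 19.2 and 4.12 CPM in Col9a1-low cells at E16.5, P0 and 13w, the reverse of the order of Cxcl14. Cx3cl1, the membrane-bound chemokine fractalkine, was higher, 13.2 CPM at 13w and 0.184 CPM at E16.5. Ackr3, a scavenging receptor for CXCL12, had 16.3, 25.2 and 57.9 CPM in the same cells. Among 7 measured genes of cytokine mRNA decay, 1 was higher and 2 were lower: Zfp36 was 4.70-fold higher and Hnrnpd and Khsrp were 5.43-fold and 2.62-fold lower. Zfp36 and Socs3 also belong to the immediate early list, and the part of that response in the pathway lists was not tested.

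**Figure D5:**
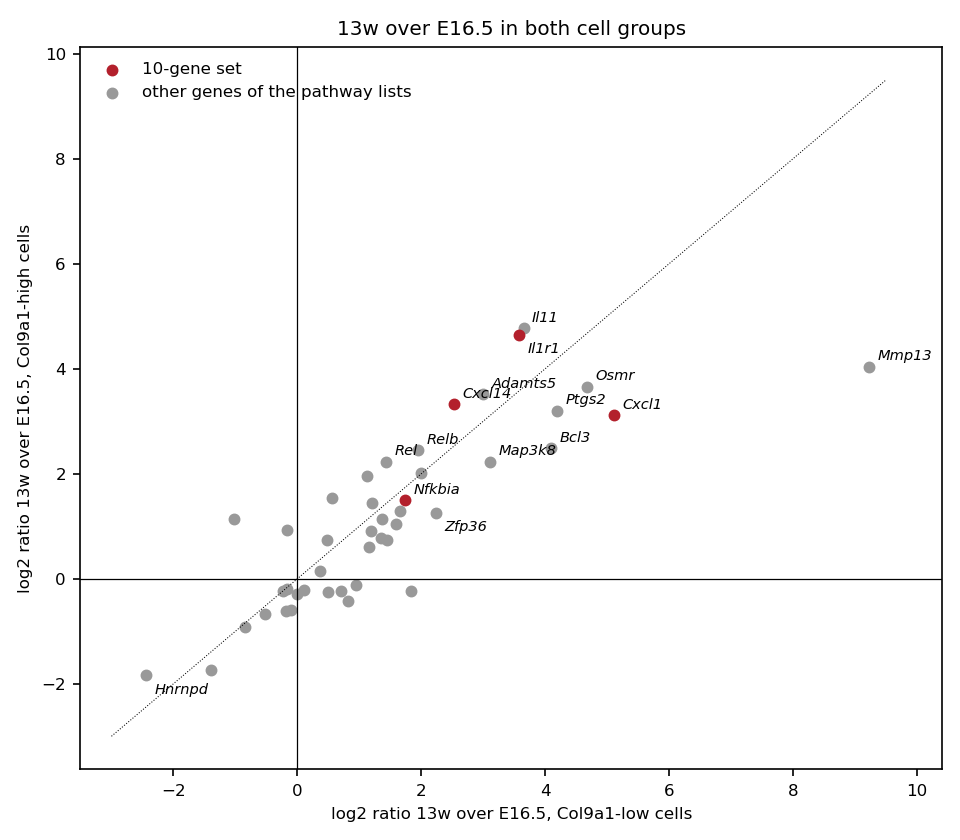
Each point is a gene with at least 10 CPM in 1 of the 2 stages in both cell groups, plotted by its log2 ratio of 13w over E16.5 in Col9a1-low cells (horizontal) and in Col9a1-high cells (vertical); members are red, other pathway genes grey, and the dotted line marks equal ratios. Il1r1 (3.58 and 4.65) and Cxcl14 (2.52 and 3.32) lie above the line, Cxcl1 (5.11 and 3.12) and Mmp13 (9.23 and 4.04) below it.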

How the data were processed

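The deposited files hold raw UMI counts per gene and barcode, made by the authors with Cell Ranger (version 6.1.2, per the file headers) on GRCm39 (per the submitters' processing notes); barcodes had been limited to called cells. The 10 genes and all lists were chosen with earlier results of these data known. Doublets were scored with Scrublet through scanpy 1.11.5; its threshold marked 5, 1 and 0 cells, which was taken as not having worked, and doublets were kept. Counts were summed per group and scaled to CPM. Ratios have exact conditional binomial, levels exact Poisson and shares exact Clopper-Pearson intervals at 95%, for counting error only. The 10 CPM minimum, the 2-fold limit and thinning to 3000 UMIs are fixed settings. UMIs from 3′ ends were not divided by transcript length, so levels are compared between cells and not between genes. Cells were gated by UMIs of at least 3 different genes of a marker list and more of these than of any other list; groups under 50 cells got no level. Genes outside the 10 were named as the pathway genes past 2-fold, up to 3 per list, direction and comparison by ratio, and as the 5 genes most correlated with each member; Cxcr2, Il1a, Il1b, Il1rn, Il1rap, Il6ra, Ptgs2 and Ackr3 at some stages, and the Il33 and Cilp2-positive values, were chosen after their values were seen. The ratio code was tested on simulated data. Alternatives used edgeR 4.0.16 (TMM) and median-of-ratios scaling. Overlapping, antisense and near-identical genes were not resolved; Bglap and Bglap2 share sequence.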

Additional observations from a re-analysis of the deposited data

How the results depend on the processing

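No paired analysis was possible because each stage is 1 pooled library and no replicate numbers are shared. Across 14 other settings and 1 chosen after seeing the data (only cells at or above the median immediate early level), 27 member ratios past 2-fold kept their call in 381 of 405 cases and lost it in 24. No call could be lost with a 5 CPM minimum or with a 1.5-fold limit, since both are looser than 10 CPM and 2-fold. The kept cases include those of these settings. Among cells below the median immediate early level, Cxcl2 at 13w against E16.5 in Col9a1-low cells turned round, with a log2 ratio of -0.60, and the difference of Cxcl1 between Col9a1-high and Col9a1-low cells at 13w was absent, at 0.00. In Col9a1-low cells, the count of members higher at 13w against P0, 3 in the report, was 5 with TMM scaling and 5 with a 1.5-fold limit, and that of members lower was 1 (Ccl2) in place of 0 in cells at or above the median. The count higher at 13w against E16.5, 5 in the report, was 3 in cells below it. The count higher at P0 against E16.5, 2 in the report, was 1 in cells below the median, 0 with a 30 CPM minimum and 4 with a 1.5-fold limit. In Col9a1-high cells, the count higher at 13w against P0, 4 in the report, was 2 with a Col9a1 limit of 10 per 10000, and the count higher at P0 against E16.5 was 1 with a 5 CPM minimum, in place of 0. For Col9a1-high against Col9a1-low cells, the count lower at E16.5, 2 in the report, was 1 with TMM, 1 with median-of-ratios scaling and 1 with a 30 CPM minimum, and the count lower at 13w, 4 in the report, was 1 in cells below the median. A 30 CPM minimum leaves fewer genes measured by construction, and a 5 CPM minimum or a 1.5-fold limit can only add calls. For the other settings the cause was not tested. Of all measured genes past 2-fold, 53.3% were higher at 13w against P0 in Col9a1-low cells, 73.0% with TMM and 65.1% with median-of-ratios scaling; at 13w against E16.5 in Col9a1-high cells it was 34.1%, 59.3% and 56.6%. Leaving out a library would leave a stage empty. Depth limits Cxcl5, Ccl7, Il6 and Il33, with at most 111 counts in any Ptprc-free group.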
